A study of Homo sapiens with 131 samples.

Results

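The nuclear and mitochondrial DNA topoisomerases were followed through mid-S phase in single HAP1 cells, in which the RNA and the replication state of the DNA had been read from the same cell. Members were chosen by gene name, and TOP2A, TOP2B, TOP1, TOP3A, TOP3B and TOP1MT made 6 of the 60708 genes of the TPM table. For 5 of the 6, all but TOP1MT, the tables that give unspliced RNA and the copy state of each gene also held a row, among 45404 genes. The family was selected on TPM values along the replication score that were known from earlier results of these cells, so the trends of the members along the score are given below as a description.

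Topoisomerases relieve the twist and the tangles that build up in DNA when it is copied, transcribed or pulled apart. Type I enzymes cut a single strand and type II enzymes pass a whole duplex through a cut in both strands. TOP2A, the type II enzyme of dividing cells, untangles sister chromatids and shapes mitotic chromosomes, and its RNA and protein are known to build up toward mitosis, whereas TOP2B is also used in cells that have stopped dividing.

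HAP1 is an established human line from a chronic myeloid leukaemia that is nearly haploid, so a replicated locus has 2 copies and an unreplicated locus 1. Single cells were sorted from mid-S phase and processed with scRR-seq, in the version with the smaller lysis volume (scRR1 in the labels), which traps the chromatin of a lysed cell on beads for copy-number sequencing and takes the RNA from the supernatant. All cells were of this line, untreated as far as the labels say, and from 1 biological experiment, so p-values cover only the spread between its cells. Of 63 mid-S cells in the labels the tables used here held 56. The replication score of a cell, the percentage of its called 40-kb bins in the 2-copy state, had a median of 54.1% and ran between 39.7% and 67.2%.

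Between 12045 and 15028 genes per cell reached 1 TPM, and the unspliced values of a cell, taken here to be expected counts, summed to between 425181 and 1353931. In 6 cells that sum was above the 1000000 reads per cell to which the methods say the RNA libraries were reduced, and the difference could not be settled from the sources used here. Libraries of the 27 cells numbered above 65 (the second set) stood apart from those of the 29 cells numbered up to 65 (the first set). The median share of TPM from the mitochondrial genome was 3.28% in the second set and 11.15% in the first, the median unspliced total was 568578 in the second set and 812254 in the first, and the mean replication score was 56.4% ± 7.07 (SD) in the second set and 50.7% ± 7.75 in the first. The labels give no batch for this split, and values are therefore also given within the sets. BCR and ABL1, whose fusion marks this line, were above 0 in 53 and 49 of the 56 cells. TPM per gene cannot show the fusion, so these values do not test the identity of the line. Of 10 markers of blood, fibroblast, epithelial and endothelial cells, 0 had a median of 1 TPM or more, and their summed TPM per cell had a median of 2.56 and a maximum of 65.6, most of it from PTPRC at 58.65 TPM in 1 cell. The fibroblast markers COL1A1 and DCN reached 1 TPM in 28 and 14 of the 56 cells, with highest values of 33.9 and 9.44 TPM, and each other marker in at most 1 cell.

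The promoters of TOP2A, TOP2B and TOP1 are shown because the RNA of the first pair varied together from cell to cell in both library sets. The RNA of TOP1 had rank correlations of 0.0110 with TOP2A and 0.00219 with TOP2B over all cells. Within the sets these were -0.0391 and -0.146 in the second set, and 0.266 and 0.129 in the first. Each run is the 250 bases before the gene start, 5′ to 3′ on the strand of the gene, from RefSeq (GRCh38.p14). They lie at chr17:40417897-40418146 (minus strand), chr3:25664908-25665157 (minus strand) and chr20:41028572-41028821 (plus strand), each next to the start that the deposited table gives. Capitals mark the letters CCAAT, the CCAAT box known from many cell-cycle promoters, and TTTGAA, the core letters of the cell-cycle homology region, on either strand (ATTGG and TTCAAA on the other strand). Neither motif overlapped the other.
TOP2A: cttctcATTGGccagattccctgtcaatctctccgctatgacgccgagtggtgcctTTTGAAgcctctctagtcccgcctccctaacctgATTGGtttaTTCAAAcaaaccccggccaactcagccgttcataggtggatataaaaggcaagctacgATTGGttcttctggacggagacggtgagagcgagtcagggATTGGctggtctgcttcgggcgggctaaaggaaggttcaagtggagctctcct
TOP2B: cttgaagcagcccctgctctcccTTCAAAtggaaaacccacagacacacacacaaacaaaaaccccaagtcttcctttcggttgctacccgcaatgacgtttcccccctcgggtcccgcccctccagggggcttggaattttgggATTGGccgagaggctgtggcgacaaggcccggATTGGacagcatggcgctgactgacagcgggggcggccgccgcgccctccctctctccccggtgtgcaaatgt
TOP1: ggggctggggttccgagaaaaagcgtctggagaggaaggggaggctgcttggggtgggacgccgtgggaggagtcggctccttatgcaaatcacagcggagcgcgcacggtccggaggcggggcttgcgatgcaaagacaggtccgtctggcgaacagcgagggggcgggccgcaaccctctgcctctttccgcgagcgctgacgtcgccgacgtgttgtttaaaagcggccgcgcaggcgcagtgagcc
The TOP2A run held 4 CCAAT matches and 2 TTTGAA matches, the TOP2B run 2 and 1, and the TOP1 run 0 of each. Over 35116 RefSeq promoters of the same length, 0.874% held at least 4 CCAAT matches, 9.53% at least 2 and 32% at least 1, and 13.3% held TTTGAA. A promoter with at least 4 CCAAT matches and a TTTGAA match was found in 0.103% of them, and one with at least 2 and a TTTGAA match in 1.34%. The runs of TOP3A and TOP3B, searched in the same way, held 0 matches to either motif. TOP3A and TOP1MT also varied together in both sets (rho 0.249 in the second and 0.400 in the first), and no run of TOP1MT is given here. These are letter matches only, binding was not measured, and a link between the matches and the variation of RNA from cell to cell was not tested.

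TOP2A RNA had by far the highest TPM of the family. TPM is a level scaled by the length of a gene, and the length used is not stated in the sources used here. The deposited length is the whole span of the gene, introns included, for 100% of genes. Comparisons of TPM between members therefore rest on a scaling that could not be checked. TOP2A had a lowest value of 173 TPM, a median of 718 and a highest of 1623 over the 56 cells, and it was above 0 in all 56. Its median ranked 171 among all 60708 genes. TOP2A supplied a median of 70.5% of the summed TPM of the 6 genes, and between 38.1% and 83.7% in single cells.

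TOP2B, the other type II enzyme, had a lowest value of 27.4, a median of 115.2 and a highest of 313 TPM. The ratio of TOP2A to TOP2B had a median of 5.83, and TOP2A was the higher of the pair in 55 of 56 cells. TOP1, the main nuclear type I enzyme, which relaxes DNA ahead of polymerases, had values between 23.2 and 129 TPM with a median of 71.4, and its spread was the smallest of the family (CV 35.7%, against 42.4% for TOP2A and 40.5% for TOP2B). TOP1 lay below TOP2B in 50 of 56 cells.

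The remaining 3 genes were lower and more variable. TOP3A, which works with BLM and RMI1 to resolve joined DNA molecules, ran from 3.11 to 207 TPM with a median of 43.6. TOP3B, an enzyme known to act on RNA as well as DNA in a complex with TDRD3, was at 0 in 5 cells and reached 85.8 TPM, with a median of 17.2. TOP1MT, the mitochondrial type I enzyme, was also at 0 in 5 cells, with a median of 24.5 and a highest value of 91.2 TPM. Their CVs were 71.8% for TOP3A, 87.3% for TOP3B and 71.7% for TOP1MT.

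Neighbours in the order of medians separated to different degrees. The difference of TOP2A and TOP2B within a cell had a median of 600.2 TPM, larger than its SD of 290.3. All other neighbouring pairs had a median difference below the SD of that difference: 42.3 ± 56.2 TPM for TOP2B over TOP1, 25.1 ± 42.4 for TOP1 over TOP3A, 15.6 ± 36.1 for TOP3A over TOP1MT and 2.96 ± 23.7 for TOP1MT over TOP3B. TOP1MT exceeded TOP3B in 30 of 56 cells, so that pair had no settled order. The plot of TPM by gene and library set shows these levels.

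**Figure D1:**
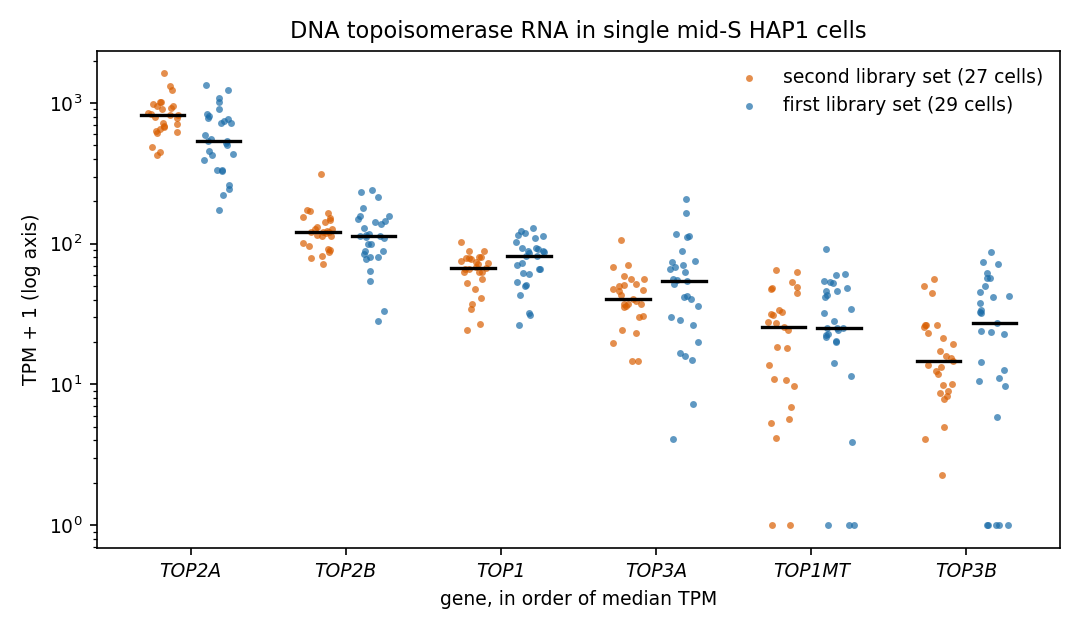
TPM + 1 on a log axis for the 6 topoisomerases in order of their median; each point is a cell, orange for the second library set (27 cells) and blue for the first (29 cells), and bars are medians. TOP2A lies above the other members, with medians of 820.0 TPM in the second set and 538 TPM in the first, and the cells at the bottom of the TOP1MT and TOP3B columns are at 0.

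Set medians of TOP2A were 820.0 TPM in the second set (427 to 1623) and 538 TPM in the first (173 to 1348). TOP2B had medians of 120.4 TPM in the second set and 112.5 TPM in the first, and TOP1MT 24.6 TPM in the second and 24.4 TPM in the first. The other 3 had lower medians in the second set. They were 66.7 TPM in the second set and 81.5 TPM in the first for TOP1, 39.5 TPM in the second and 53.3 TPM in the first for TOP3A, and 13.6 TPM in the second and 26.4 TPM in the first for TOP3B. The sets overlapped for every member. TPM is a share of a cell's reads, so that more RNA of 1 gene and less of others cannot be told apart.

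Along the replication score, TOP2A had the largest trend of the 6. In 4 groups of 14 cells each, ordered by score from low to high, its median was 509.6, 570.2, 799 and 821 TPM. The 14 cells with the highest scores (58.5% to 67.2%) held TOP2A values between 458 and 1348 TPM, against 173 to 900.0 TPM in the 14 cells with the lowest scores (39.7% to 47.2%), so these groups overlapped. The Spearman rho of TOP2A with the score was 0.509 over the 56 cells, the rank 6 from the top among 17132 genes tested, and Pearson's r of log10(TPM + 1) was 0.502. Within the sets rho was 0.292 in the second and 0.401 in the first. These points share their libraries and their total of reads, and rho is given without a p.

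A generalized additive model was fitted to log10(TPM + 1) of each gene along the score, adapted from the one the study used for S-phase progression markers. The study applied its version to HAP1 cells too and lists markers for this line, which were not compared here. The model fitted here called 0 of the 6 members with Benjamini-Hochberg adjustment over 17132 genes. It called 7 genes in all, 0.0409% of those tested. The study's version used RSEM values, an added criterion on model fit and a filter on expression after the adjustment, whereas here the deposited TPM were filtered before it. Without that filter 39 of 35981 genes were called (0.108%), again 0 of them members, and TOP2A had an adjusted p of 0.0632 in the generalized additive model. TOP2A ranked 11 by its p in that model, with an adjusted p of 0.125 in the generalized additive model. The slope of TOP2A in limma was 0.43 ± 0.11 (SE) in log2(TPM + 1) per 10 points of score, with an adjusted p of 0.199 (limma, which called 0 genes). At an unadjusted p under 0.05 the additive model counted 2 of the 6 members, TOP2A and TOP2B, beside 10.4% of all genes, and limma counted 1, TOP2A, beside 9.35%. None of these values is independent evidence for TOP2A, since the family was chosen with its trend known.

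The other members had smaller trends. Over the same 4 groups from low to high score, TOP2B had medians of 110.9, 99.9, 125 and 119.6 TPM with a rho of 0.269 (0.0922 in the second set and 0.308 in the first). TOP3A had the most negative rho of the family, -0.249 (-0.356 in the second set and -0.185 in the first), with medians of 59.2, 44.0, 43.7 and 35.5 TPM. The Spearman correlation with the score was -0.182 for TOP1MT (-0.201 in the second set and -0.125 in the first), -0.156 for TOP3B (0.0153 in the second set and -0.141 in the first) and -0.0576 for TOP1. For TOP1 it was above 0 within both sets (0.0586 in the second and 0.0635 in the first), so its sign over all cells was not that within the sets. Adjusted p-values of these 5 in the generalized additive model lay between 0.463 (TOP2B) and 0.823 (TOP1MT). The plot of TPM against score shows that the cells with the lowest TOP2A lie below the median score.

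**Figure D2:**
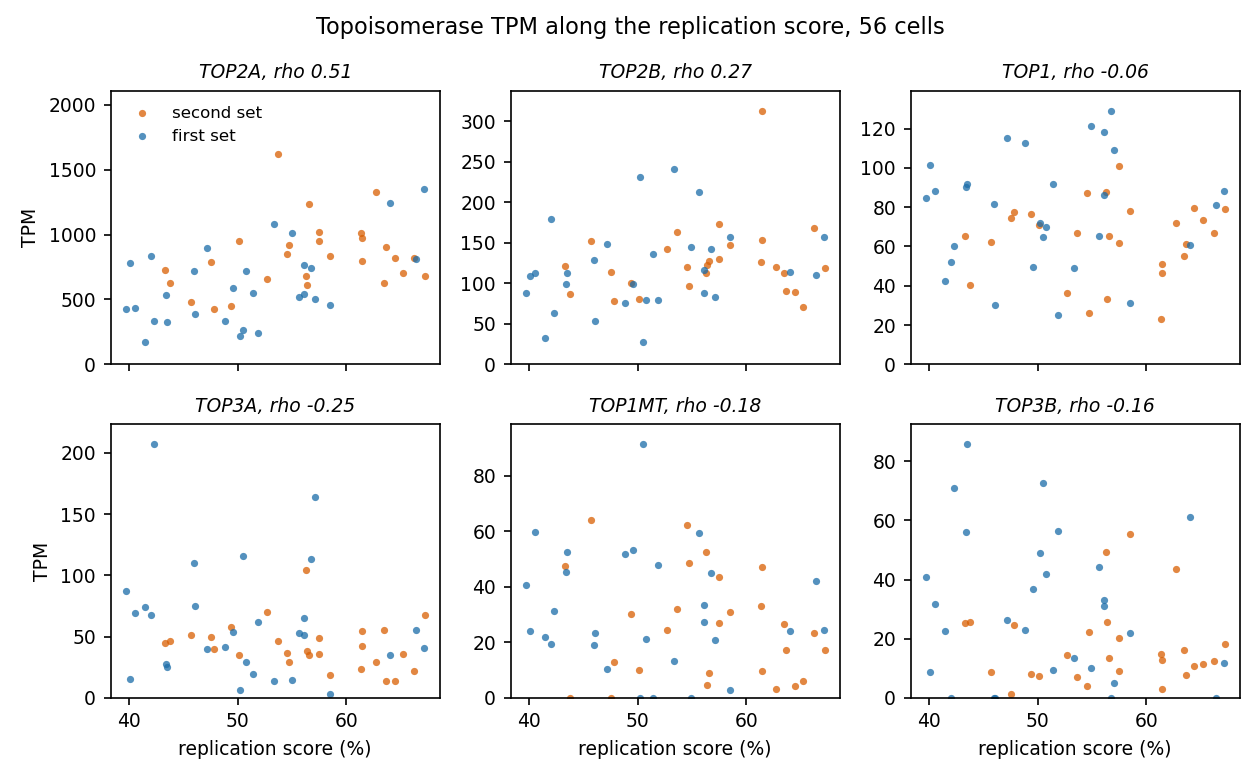
TPM of each topoisomerase against the replication score (%) in 56 cells; each point is a cell, orange for the second library set and blue for the first, and each panel has its own TPM axis from 0. TOP2A points lie higher at higher scores (rho 0.51), TOP2B points less so (rho 0.27), and the other 4 panels show wide scatter with rho between -0.25 and -0.06.

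Single cells departed widely from the TOP2A trend. The highest value, 1623 TPM, was in a cell of the second set with a score of 53.7%, near the middle of the range. The 5 cells with the lowest TOP2A, 173, 221, 242, 261 and 329 TPM, were all of the first set, with scores between 41.5% and 51.9%. TOP2B did not follow in each of them: it was 32.1 and 27.4 TPM in the cells with 173 and 261 TPM of TOP2A but 232 TPM in the cell with 221 TPM, the 1 cell in which TOP2B exceeded TOP2A.

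Technical measures moved with TOP2A too. Its rho with the mitochondrial share of TPM was -0.468 over all cells, -0.0476 in the second set and -0.505 in the first, and with the unspliced total it was -0.563. The score itself had a rho of -0.402 with the mitochondrial share. With TPM rescaled to nuclear genes the rho of TOP2A with the score was 0.488, and after the mean of each set was removed it was 0.375. The part of the unspliced total in this trend was not tested. A test of whether the slope differed between the sets, limma with a score-by-set term, called 0 of 6 members at an adjusted or an unadjusted p under 0.05, beside 0% of 17132 genes adjusted and 4.73% unadjusted; for TOP2A the slope of the second set minus that of the first was -0.24 ± 0.24 (SE) in log2 per 10 points.

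Members also varied with each other. TOP2A and TOP2B had a rho of 0.480 across cells (0.369 in the second set and 0.546 in the first), and 0.481 after removal of set means. TOP2A ran opposite to TOP3A (rho -0.395) and TOP3B (rho -0.368), in both sets. TOP3A and TOP1MT had a rho of 0.404 (0.249 and 0.400 in the second and the first set). TOP1 had rho values between -0.0487 and 0.0682 with the other 5 over all cells. With TOP2A its rho was -0.0391 in the second set and 0.266 in the first, and 0.173 after removal of set means, and with TOP3B it was -0.113 after that removal. TPM values of a cell share 1 total, so an abundant gene such as TOP2A and its neighbours in that total are not free of each other.

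The genes most like TOP2A across the 56 cells, out of 17132, were SKA2, a subunit of the spindle and kinetochore-associated complex (rho 0.627), FKBP5, a co-chaperone of HSP90 (0.603), LRRC42 (0.602), RAD21, the cohesin subunit that closes the ring (0.598), PGD of the pentose phosphate pathway (0.595), EIF4A1, a helicase of translation initiation (0.582), MATR3, a nuclear RNA-binding protein (0.574), and KIF15, a mitotic kinesin (0.570). For scale, the median rho of all genes with TOP2A was -0.0143 and the 99th percentile 0.43. RAD21 stood between 68.8 and 434 TPM, with a median of 217, and KIF15 between 0 and 66.4 TPM, with a median of 18.7. After removal of set means 6 of these 8 remained among the 8 most like TOP2A, and with Pearson's r of log10(TPM + 1) 3 of 8 did. Within the sets, rho was lower in the second set than in the first for all but PGD (0.543 and 0.523). The gap was widest for EIF4A1 (0.128 in the second and 0.781 in the first) and MATR3 (0.254 and 0.687). LRRC42 (0.310 and 0.693) and KIF15 (0.330 and 0.667) came next.

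The highest rho of any gene with another member was 0.573. SCO1, a copper chaperone of cytochrome oxidase, led for TOP1 (rho 0.538, with NT5DC3 at 0.495 and TATDN3 at 0.482), and CASD1, a sialic acid acetyltransferase, for TOP2B (0.528, with TDH at 0.499 and AGGF1 at 0.498). HCFC1R1 led for TOP3A (0.513, with FNIP2 at 0.478 and PPT2-EGFL8 at 0.464). C1orf167 led for TOP1MT (0.527, with PMVK, a kinase of the mevalonate pathway, at 0.512 and SNRK-AS1 at 0.473). TOP3B was most like PPM1F-AS1 (0.573), RP11-158D2.2 (0.542) and UPF1, the helicase of nonsense-mediated decay (0.533). For scale, the 99th percentile of rho over all genes lay between 0.305 (TOP1MT) and 0.386 (TOP3B) for these members. TDH, C1orf167 and SNRK-AS1 had a median of 0 TPM, PPM1F-AS1 of 0.300 and RP11-158D2.2 of 0.910. Their rank correlations rest in large part on values at or near 0.

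PPM1F-AS1 overlaps TOP3B on the opposite strand over 20608 of the 25789 bp of TOP3B. No source used here states if reads were counted by strand, so those of TOP3B and PPM1F-AS1, which had a median of 0.300 TPM, cannot be told apart. PLCG1-AS1 overlaps TOP1 on the opposite strand over 26469 bp and had a median of 0.0400 TPM. The pseudogenes TOP1P1 and TOP3BP1 were above 0 in 1 and 9 cells, with highest values of 36.8 and 17.4 TPM. Small RNA genes and pseudogenes within TOP2A, TOP2B, TOP3A and TOP1MT (Y_RNA, MIR4442, ENSG10010136217.1, RPL7AP65, RPL21P121 and RNU6-220P) were each above 0 in at most 1 cell.

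Gene groups around the topoisomerases were followed in the same fit. Of 25 mitotic genes, 0 passed the adjusted threshold of the additive model and 7 had an unadjusted p under 0.05 with a positive rho, beside 5.77% of all genes. Their median rho with the score was 0.221, against 0.00393 over all genes, and their median rho with TOP2A was 0.257, with 22 of 25 above 0. After removal of set means their median rho with TOP2A was 0.281. The spindle motor KIF11 (rho 0.549 with TOP2A), the mitotic kinase CDK1 (0.538), the spindle protein DLGAP5 (0.526) and NUSAP1, a microtubule-binding spindle protein (0.482), were the most like TOP2A, and TTK, a checkpoint kinase, had the lowest p along the score (rho 0.410 with the score, adjusted p 0.319 in the generalized additive model, the same adjusted value as NUSAP1). ASPM, a spindle pole protein, went the other way, with rho -0.262 with the score and -0.253 with TOP2A. The mitotic group is not independent of the choice of the family, since its trend in these cells was also known.

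Of 26 replication genes, 1 was called, MCM3, a subunit of the replicative helicase, which fell along the score (rho -0.620, adjusted p 0.00854 in the generalized additive model), beside 0.0292% of all genes called as falling. A further 4, MCM6, MCM5, POLD1 and MCM7, had an unadjusted p under 0.05 with a negative rho, beside 4.61% of all genes. The median rho of the group was -0.105 with the score and -0.0611 with TOP2A. After removal of set means the median with TOP2A was 0.0274, so its sign was not settled. This group too was chosen with earlier results of these data known, so its counts are not independent of that choice.

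Partners and repair factors had no shared direction along the score. Of 11 partners of topoisomerases, 0 passed at either threshold, beside 0.0409% of all genes after adjustment and 10.4% at an unadjusted p under 0.05. Their median rho with the score was -0.00308. PLSCR1, a binding partner of TOP2A, and NONO, an RNA-binding protein, had the lowest p of the group (rho 0.132 and 0.121 with the score) and rho values of 0.368 and 0.424 with TOP2A. RMI1 and BLM, which form a complex with TOP3A, had medians of 30.4 and 41.8 TPM, and TDRD3, the partner of TOP3B, 18.8 TPM. Of 17 genes for repair of topoisomerase-DNA adducts, 0 passed after adjustment and 1 had an unadjusted p under 0.05, near the share of all genes (10.4%, and 4.61% as falling). It was ZNF451, a SUMO ligase that acts with TDP2 (rho -0.313 with the score). TDP2 and TDP1, the enzymes that free DNA ends from TOP2 and from TOP1, had medians of 22.9 and 13.4 TPM. In the remaining group, TOPBP1, a checkpoint protein, and TOPORS, a ligase that binds TOP1, were the 2 genes tested, with rho values of -0.235 and 0.142, and SPO11, the meiotic relative of the type II enzymes, was listed at 0 in all cells.

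**Figure D3:**
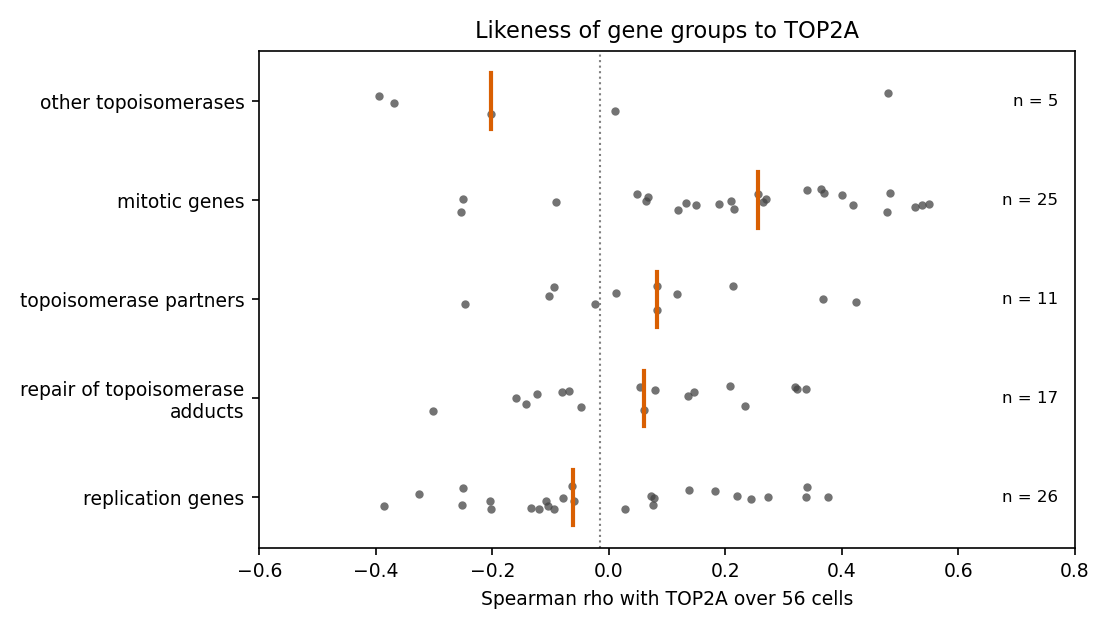
Spearman rho with TOP2A over 56 cells (horizontal axis) for the other 5 topoisomerases and the 4 gene groups; each point is a gene, orange bars are group medians and the dotted line is the median of all 17132 genes. Mitotic genes lie mostly to the right (median 0.257, 22 of 25 above 0) and replication genes on both sides (median -0.0611, 12 of 26 above 0). After removal of set means, which is not plotted, these medians were 0.281 for mitotic and 0.0274 for replication genes.

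The replication state of the genes themselves set the family in 2 groups. In the 55 cells scored 40 to 70%, TOP2A (chromosome 17, 40388525 to 40417896 in hg38, minus strand) was 2-copy in 55 of 55, TOP3A (chromosome 17, 18271428 to 18315007, minus strand) in 53 of 53 cells with a call, and TOP3B (chromosome 22, 21957025 to 21982813, minus strand) in 53 of 54. These 3 genes were replicated in nearly every sampled cell, so that their RNA could not be compared between copy states. TOP2B (chromosome 3, 25597984 to 25664907, minus strand) was 2-copy in 37 of 55 cells (67.3%) and TOP1 (chromosome 20, 41028822 to 41124487, plus strand) in 35 of 51 (68.6%). Of 45404 genes with calls, 60.2% were 2-copy in a larger share of cells than TOP2B and 59.9% than TOP1. The copy state of TOP1MT was not analysed here.

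TOP1 lies on a steep slope of replication timing. The 40-kb bin centred at -489 kb from its start was 2-copy in 5.45% of cells, the bin over its start in 54.5%, the last bins over the gene in 70.9% and the bin 311 kb past its start in 87%. The share increased along the direction of transcription through the gene, and 4 cells had no single call for it. Around TOP2B the share was nearly level over the gene (65.5% to 67.3%), highest at 76.4% in the bin at -115.1 kb, and 30.9% in the bin 365 kb past the start. Bins around TOP2A within 500 kb of its start were 2-copy in 96.4% to 100% of cells with a call, those around TOP3A in 92.5% to 100%, with the lowest share at -505.0 kb, and around TOP3B the lowest share was 72%, at -357 kb. In 27 of the cells both TOP1 and TOP2B were 2-copy, in 9 both were 1-copy, in 8 TOP1 alone and in 7 TOP2B alone was 2-copy, so neither gene was always the first to replicate.

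**Figure D4:**
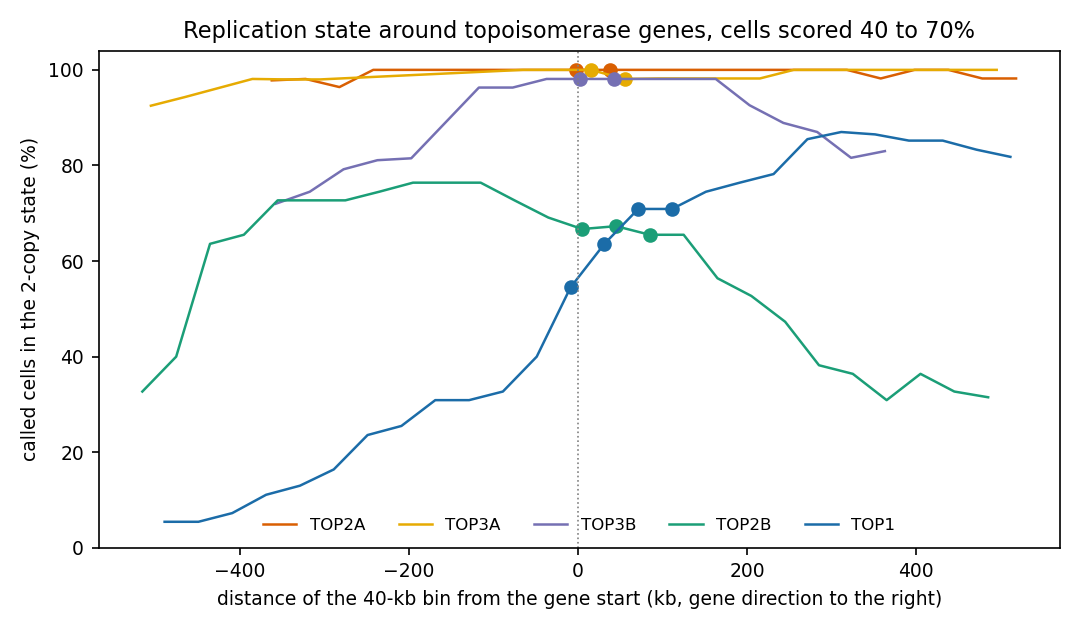
Percentage of called cells in the 2-copy state (vertical axis) in 40-kb bins by distance of the bin centre from the gene start (kb, direction of transcription to the right) for 5 topoisomerase genes, over cells scored 40 to 70%; dots mark bins that overlap the gene. TOP2A stays between 96.4% and 100% and TOP3A between 92.5% and 100%, TOP3B is at 98.1% over the gene, TOP2B lies between 65.5% and 67.3% over the gene, and TOP1 lies between 54.5% and 70.9% over the gene, on a slope that is low to the left.

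The question of the study, whether RNA differs between cells in which a gene has and has not replicated, could be asked for TOP1 and TOP2B. For spliced RNA, the TPM of exon reads, TOP1 had a median of 70.9 TPM in 2-copy cells (23.2 to 129, 35 cells) and of 73.3 TPM in 1-copy cells (30.0 to 118, 16 cells). The ratio of these medians was 0.966, and the groups overlapped over nearly their whole range (permutation test of ranks, two-sided, p = 0.553). TOP2B had a median of 119 TPM in 2-copy cells (32.1 to 313, 37 cells) and of 115.2 TPM in 1-copy cells (27.4 to 241, 18 cells), a ratio of 1.03 (permutation test, p = 0.893). In the Wilcoxon fit over 2455 genes with mixed states, 0 of these 2 members had p under 0.05, beside 8.55% of all genes tested, and 0 genes passed after adjustment. Within the sets, TOP1 had medians of 68.9 TPM in 2-copy and 65.5 TPM in 1-copy cells of the second set, and of 80.9 TPM in 2-copy and 90.1 TPM in 1-copy cells of the first. TOP2B had medians of 120.4 TPM in 2-copy and 118 TPM in 1-copy cells of the second set, and of 111.2 TPM in 2-copy and 114.8 TPM in 1-copy cells of the first.

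Unspliced TOP2B RNA was more often seen where the gene was replicated, without passing the test. In 2-copy cells its expected count had a median of 4.00 (0 to 375, above 0 in 26 of 37 cells), against a median of 0.1 in 1-copy cells (0 to 37.0, above 0 in 9 of 18 cells). At least 10 counts were reached in 18 of the 2-copy and 5 of the 1-copy cells. The permutation test of ranks gave p = 0.0753 (two-sided), and the Wilcoxon fit over 3159 genes an adjusted p of 0.762, with 6.71% of those genes at an unadjusted p under 0.05. In edgeR's quasi-likelihood test on rounded counts, all 10739 genes were split by the copy state of TOP2B, not by their own. For TOP2B the log2 difference of 2-copy over 1-copy cells was 2.27 (edgeR, unadjusted p 0.035, adjusted p 0.328). In that split 12.7% of genes had an unadjusted p under 0.05 and 2.59% an adjusted one. The 2-copy cells also had higher scores (median 56.3%, against 50.2% in 1-copy cells), and with the trend on the score taken out the Wilcoxon p was 0.294. In the second set the medians were 4.00 in 2-copy and 8.80 in 1-copy cells, and in the first set 7.2 in 2-copy and 0 in 1-copy cells, so that the direction of the medians was not shared by the sets.

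**Figure D5:**
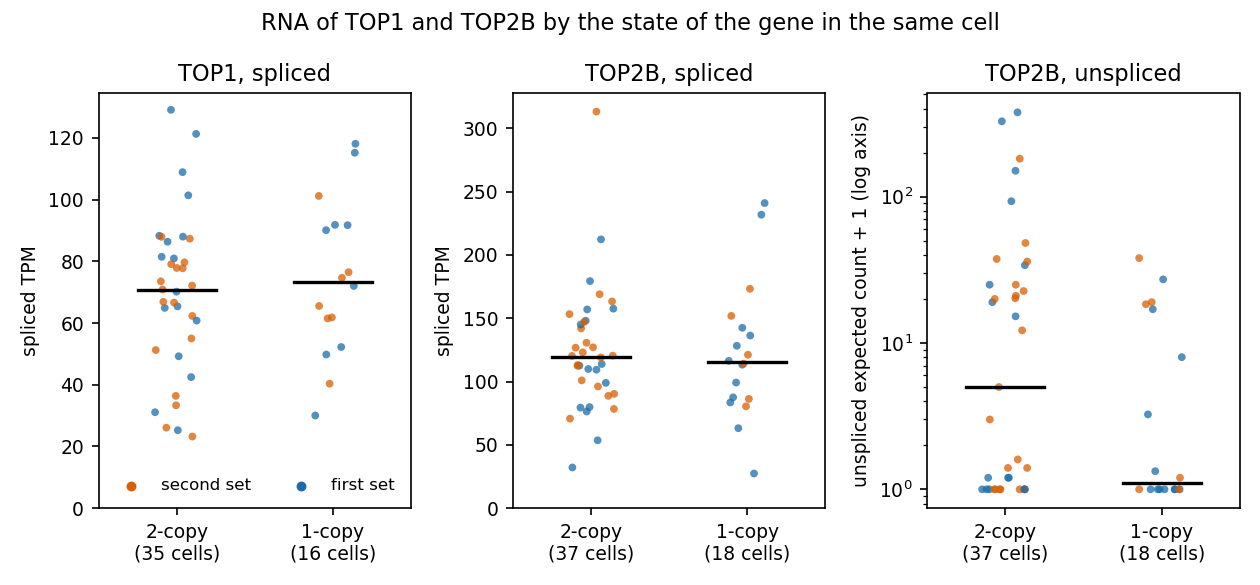
Spliced TPM of TOP1 and TOP2B and unspliced expected count + 1 of TOP2B (log axis) by the state of the gene in the same cell, 2-copy left and 1-copy right; each point is a cell scored 40 to 70%, orange for the second library set and blue for the first, and bars are medians. The spliced medians nearly coincide (70.9 and 73.3 TPM for TOP1, 119 and 115.2 TPM for TOP2B), and the unspliced values of both states spread from 0 upward.

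Unspliced RNA of the members gave a sparser picture. TOP2A was above 0 in 44 of 56 cells, with a median of 7.36 expected counts and a highest value of 130.0, TOP2B in 36 cells (median 1.3, highest 375), TOP3A in 46 (1.00 and 25.2) and TOP3B in 42 (17.3 and 247). TOP1 was above 0 in 3 cells only, at 149, 105.7 and 13.6 counts, all of them in the first set. Of 1512 genes with at least the spliced median of TOP1, 17.1% had unspliced values above 0 in as few cells, and the median gene of these in 32 cells. TOP1 did not pass the filter of the test along the score. Without that filter it was called as falling (edgeR, adjusted p 0.0237) on those 3 cells, beside 9.72% of 22819 genes called, against 2.68% with the filter. Of the other 4 members, edgeR's quasi-likelihood test along the score called 0 with the filter at an adjusted p and 0 at an unadjusted p under 0.05, beside 2.68% and 12.3% of 10739 genes, and 0 of 4 were counted at both by DESeq2 (beside 3.43% adjusted and 13.9% unadjusted of all genes) and by limma (beside 0% and 7.89%). The slope of TOP2A was -0.38 in log2 per 10 points of score (edgeR, adjusted p 0.879) and turned to 0.07 with the library set as a term (adjusted p 0.998), so that unspliced TOP2A had no settled direction. The rho of its unspliced and spliced values across cells was 0.0592. TOP3B was the member whose unspliced and spliced values went together most (rho 0.566), and it is also the member overlapped by PPM1F-AS1 over most of its length.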

How the data were processed

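The DNA and the RNA library of a cell were joined by its number. The authors used BWA for DNA reads (0.7.17-r1188 per the submitters' processing notes, build hg38), corrected mappability with G1 cells and called 40-kb bins; the deposited copy state is a score of 1, -1 or 0 for 2-copy, 1-copy or no call. RNA was counted by the authors with the ramdaq pipeline. The deposited TPM values are per gene, and the spliced table equalled them for all shared genes. The deposited unspliced values were taken to be expected counts. The authors describe them as gene-body reads less exon reads, with negative values set to 0. The table is titled TPM, but its totals differ between cells, and of its values above 0, 21.3% were whole and 72.0% multiples of 0.1 (within 1e-06). The authors state a reduction to 1000000 reads per cell, which the unspliced totals of 6 cells exceed, so the unit is not certain. The values were rounded to whole numbers for edgeR and DESeq2. RNA came from the supernatant, which is mainly cytoplasmic.

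Members and gene groups were chosen with earlier results of these data known. Named genes were the 6 members, the 8 genes most like TOP2A and the 3 most like each other member, and from each group the called genes or the 2 with the lowest p (for mitotic genes also the 4 most like TOP2A), with pseudogenes and overlapping genes. Trends used genes that reached 1 TPM in 20% of cells or more. Generalized additive models (mgcv 1.9.3), limma 3.58.1 (on log2(TPM + 1)), edgeR 4.0.16 (genes above 0 in over 50% of cells, TMM) and DESeq2 1.42.0 ran in R 4.3.3, with Benjamini-Hochberg adjustment over all genes tested and a threshold of 0.05. Copy states were compared in cells scored 40 to 70%, for genes above 0 in over 50% of cells, called in at least 50% and with neither state in over 80%, by two-sided Wilcoxon rank-sum tests. Permutation tests of ranks drew 100000 resamples. A pseudocount of 1 shrinks differences of low genes. The functions for the additive model, limma, edgeR and Wilcoxon tests were checked on simulated data. DESeq2 was also run on simulated data, without a limit to pass, and the other steps were not tested in this way. Mapped reads per cell were not given in the tables used here. Promoters came from RefSeq.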

Additional observations from a re-analysis of the deposited data

Results flagged for a closer look

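In groups of 4 to 10 cells, made by copy state within a library set, 6 groups of values were checked for a cell far from the rest, and 1 had one. Among the 9 cells of the first set with 1-copy TOP1, 8 had an unspliced TOP1 count of 0 and 1 had 149. Chance alone gives such a cell in about 1 of 20 groups of normally spread values, and counts that are mostly 0 are not spread in that way. Its spliced TOP1 level was 49.8 TPM, within the range of the other cells.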

How the results depend on the processing

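Of 128 alternative values, 7 changed direction, 8 moved by more than the limit set for them, and the rest stayed within their limit. For tests this meant the same direction and the same side of the threshold. For counts it meant a small fold change, and for levels a shift of the median below the SD between cells. TOP2A kept a positive rho with the score under all TPM alternatives (0.375 to 0.512), with adjusted p-values between 0.0632 (without a filter on low values, generalized additive model) and 0.475 (library set as a term), so it was called in none. TOP1, near 0 in rho, turned positive when the 2 cells with the most extreme scores were left out (0.00873) and with the library set as a term (0.0578). With the set as a term, the unspliced slopes of TOP2A and TOP3B turned positive too (0.0742 and 0.0342 in log2 per 10 points). Without a filter on low values 1 member was called along the score in unspliced RNA: TOP1, above 0 in 3 cells, where 2219 of 22819 genes were called, against 288 of 10739 with the filter. The share of cell pairs in which the 2-copy cell had the higher spliced TOP2B value was 0.512 and became 0.437 with the score taken out, 0.448 in cells scored 45 to 65% and 0.495 less the mean of the set. Of the 8 genes most like TOP2A, 3 remained with Pearson's r. For the other members, 0 to 2 of 3 genes remained with Pearson's r and 1 to 3 after removal of set means. The causes of these changes were not tested. No paired analysis was possible because the groups that share numbers are the DNA and the RNA libraries of the same cells, whose values were joined within a cell for the copy-state tests and not compared with each other, and copy states of a gene hold different cells. Sparse unspliced counts limit what could be detected, most of all for TOP1.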
